A study of Mus musculus with 5 samples.

Results

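The kinesins are motor proteins that walk along or take apart microtubules. Their genes were taken here as all genes whose platform symbol starts with Kif followed by a digit, which gave 37 genes and 47 probes among 19084 genes and 26423 probes. They were divided by known role into 12 mitotic kinesins, 15 transport kinesins and 10 others, the latter acting in cilia, centrioles, signalling or in several settings. These classes, and the other gene lists used below, were set with earlier results of these data known. The 5 single-colour arrays were of mouse cells. MEF is 1 array of fibroblasts grown from embryos of 13.5 days post coitus and given a mock vector. iLC, called induced Leydig-like cells by the submitters, is 2 arrays of fibroblasts from embryos of the same age that were given Dmrt1, Gata4 and Nr5a1 on lentiviruses. Leydig is a pair of arrays of the testis cells that make androgens, isolated from mice aged 56 days and given no factors. The protocol text, the same for every sample, gives 12 hours of virus and then a medium holding IGF (50 ng/ml) together with PDGFAA (10 ng/ml). It does not say whether the mock-transduced cells received that medium, or how long iLC were kept in it. No label says whether the arrays of a pair stem from different cultures or mice. The titles number them as replicates, but a short code of unstated meaning beside each sample differs within both pairs. The p-values therefore cover the spread between these arrays, and MEF, with its single array, was taken to have the spread of the pairs.

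Kinesins share a motor domain that turns ATP hydrolysis into movement on microtubules. Transport kinesins carry vesicles, organelles and protein complexes, mostly outward from the cell centre, and work in dividing and resting cells alike. Mitotic kinesins build the spindle, position chromosomes and drive the final separation of daughter cells, and their transcripts peak when cells prepare to divide. Embryonic fibroblasts divide in culture, whereas adult Leydig cells seldom divide.

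Short sequence elements known from cell cycle promoters were searched in the promoters of the kinesin genes, from 250 bases before to 50 bases after each annotated start site (RefSeq, GRCm38.p6). Of the 37 genes, 31 had such a window, matched by Entrez identifier, and some had more than 1, giving 35 windows. The cell cycle genes homology region (CHR), written TTTGAA and searched on both strands, is the element through which the DREAM and MuvB complexes time late cell cycle genes. It was present in 9 of the 11 mitotic windows, 1 of the 13 transport windows and 2 of the 11 other windows, against 17.9% of the 32851 windows of all genes. In 7 of the 11 mitotic windows a copy began within 30 bases of the start site. CCAAT, the box bound by NF-Y, was present in 7 mitotic, 4 transport and 4 other windows, against 37.4% of all windows. Among these transport windows, both of Kif1b overlap and hold the same boxes. The E2F-type element TTTGGCGC was found in 2 mitotic windows, 0 transport windows and 0 others (0.514% of all windows). TTCGAA was in 0 mitotic windows and 1 other window (1.56% of all), TTCCCGC in 0 mitotic and 2 other windows (4.60% of all), and TTTCGCGC in 0 kinesin windows (0.323% of all). Transport windows held none of these last 3. No 2 different elements overlapped in a kinesin window. These are matches of letters, not measured binding sites. The 8 stretches that follow belong to the mitotic kinesins that passed the test as lower in Leydig cells than in MEF, and run from 110 bases before to 30 bases after the start site, 5′ to 3′ on the gene's strand. Capitals mark the CHR element, the NF-Y box and the E2F-type element, on either strand.
Kif23 (chr9:61946770-61946909, minus strand): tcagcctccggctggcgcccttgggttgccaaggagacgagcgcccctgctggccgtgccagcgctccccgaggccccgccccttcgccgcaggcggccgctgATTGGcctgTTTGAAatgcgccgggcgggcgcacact
Kif20b (chr19:34922248-34922387, plus strand): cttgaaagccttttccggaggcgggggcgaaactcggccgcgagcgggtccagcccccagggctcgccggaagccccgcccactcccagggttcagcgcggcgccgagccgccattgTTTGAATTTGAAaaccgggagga
Kif15 (chr9:122950971-122951110, plus strand): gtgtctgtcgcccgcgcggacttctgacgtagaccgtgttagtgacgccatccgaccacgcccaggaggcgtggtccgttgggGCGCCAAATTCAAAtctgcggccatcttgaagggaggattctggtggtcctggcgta
Kif11 (chr19:37376272-37376411, plus strand): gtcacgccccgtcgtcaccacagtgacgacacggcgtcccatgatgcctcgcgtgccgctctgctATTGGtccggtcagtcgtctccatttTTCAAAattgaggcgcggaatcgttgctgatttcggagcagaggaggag
Kif22 (chr7:127042391-127042530, minus strand): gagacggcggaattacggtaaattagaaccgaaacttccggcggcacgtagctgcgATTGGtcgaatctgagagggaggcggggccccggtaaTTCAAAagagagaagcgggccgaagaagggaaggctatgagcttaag
Kif4 (chrX:100625955-100626094, plus strand): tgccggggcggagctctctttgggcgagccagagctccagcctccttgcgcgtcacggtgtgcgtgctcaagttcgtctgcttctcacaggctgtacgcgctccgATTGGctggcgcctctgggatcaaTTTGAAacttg
Kif2c (chr4:117178743-117178882, minus strand): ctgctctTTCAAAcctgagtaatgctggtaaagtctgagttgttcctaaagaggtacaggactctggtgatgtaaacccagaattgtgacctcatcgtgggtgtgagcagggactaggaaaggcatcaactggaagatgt
Kif18a (chr2:109280628-109280767, plus strand): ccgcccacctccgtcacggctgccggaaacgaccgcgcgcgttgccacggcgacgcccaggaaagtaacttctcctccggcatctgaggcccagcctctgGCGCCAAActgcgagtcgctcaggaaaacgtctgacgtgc
In Kif23 the NF-Y box stood just before the CHR element at the start site. In Kif20b the CHR element was repeated head to tail, and in Kif15 the E2F-type element ran straight into it. Kif18a carried the E2F-type element with no CHR element, and the copy of Kif2c lay 103 bases upstream.

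**Figure D1:**
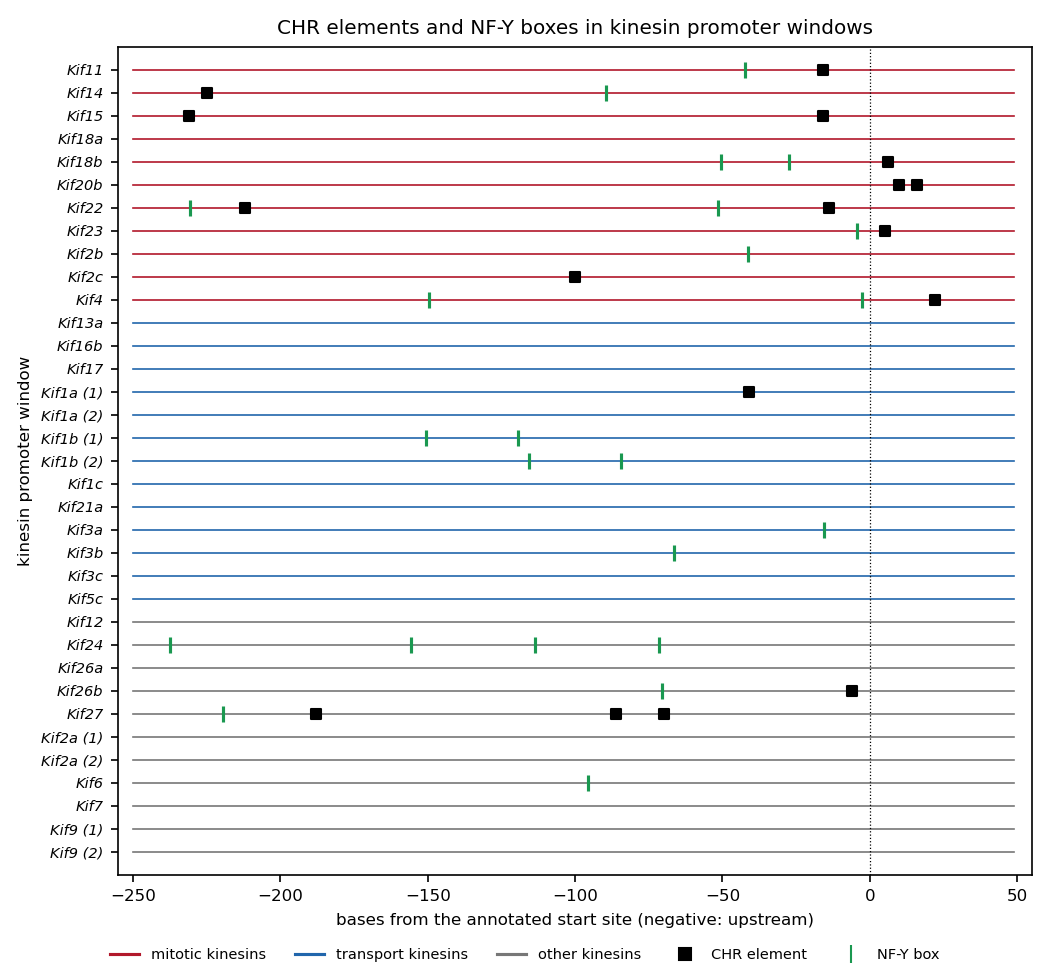
Promoter windows of the kinesin genes, one line per window coloured by class, with the distance from the annotated start site in bases on the horizontal axis. Squares mark the CHR element and bars the NF-Y box; 9 of the 11 mitotic windows carry a square, against 1 of 13 transport windows, that of Kif1a.

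Median probe intensities of the 5 arrays lay between 1111 and 1230, and the log2 values of the iLC pair correlated at 0.978 and those of the Leydig pair at 0.961, over genes, which are not independent replicates. The first percentile ranged from -10.1 on iLC replicate 1 to 83.8 in MEF, so dim probes can differ by their array's offset alone. The sum of 7 measured Leydig markers was 14634 for MEF, 95398 and 116769 for iLC and 401873 and 412914 for Leydig cells. The median iLC minus MEF difference of the 7 was 0.06, with 3 below 0 and 4 above. In Leydig cells 4 of the 7 (Cyp17a1, Hsd3b1, Nr5a1, Gata4) were higher than in MEF, and Hsd3b1 was so in iLC (limma, adjusted p under 0.05). Star, which brings cholesterol into mitochondria, read 695.0 in MEF, 56878 and 73892 in iLC, and 1368 and 19703 in the Leydig pair, and its iLC minus MEF difference of 6.51 did not pass (adjusted p = 0.107). Nr5a1 and Gata4, 2 of the delivered factors, had lower readings in iLC than in Leydig cells. Nr5a1 read 1265 in MEF and 1509 and 1158 in iLC, and Gata4 read 6773 in MEF and 4127 and 3150 in iLC. Whether their probes lie within the delivered sequences is not given. The 19 germ cell markers summed to 14586 in MEF, 17035 and 17003 in iLC, 65270 on Leydig replicate 1 and 938075 on Leydig replicate 2, so the second Leydig array stood apart. Both Leydig arrays carried such transcripts, as 4 of the 19 (Dazl, Ldhc, Meig1, Zbtb16) were called higher in Leydig cells than in MEF. Dazl read 329.1 in MEF and 3150 and 2389 in the Leydig pair, and Ldhc 110.4 in MEF and 8223 and 15116 there. The 12 macrophage markers summed to 201793 in MEF, 54039 and 113363 in iLC, and 26655 and 25088 in the Leydig pair. Between iLC and MEF 0 passed in limma, with 5 at an unadjusted p under 0.05, against 3006 of all 19084 genes. In Leydig cells 7 were lower than in MEF. Of all 19084 genes, limma called 3.39% higher and 3.99% lower in Leydig cells than in MEF, and 0.571% between iLC and MEF. Between Leydig cells and MEF, 3 of 10 fibroblast markers were lower (Postn, Fn1, Thy1) and Pdgfra higher, 5 of 6 smooth muscle and myoid markers were lower, 2 of 9 Sertoli markers (Clu, Cldn11) were higher, and of 6 endothelial markers Cdh5 was higher and Emcn lower. No marker value on any array was 0 or below.

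Between iLC and MEF, 6 of the 12 mitotic kinesins were lower and none was higher, while none of the 15 transport or 10 other kinesins passed the test. A difference was called when its adjusted p in limma was under 0.05 (Benjamini-Hochberg over all 19084 genes); over all genes 0.288% were called lower and 0.283% higher (0.571% in all), or 55 and 54 genes, and with arrays centred on their median 215 and 131. Intensities are on a linear scale, and differences are of log2(intensity + 16), which shrinks those of dim genes. Kif23, the motor of the centralspindlin complex that bundles microtubules between separating chromosomes, read 24144 in MEF and 986.2 and 1194 in iLC. Its log2 difference was -4.46 ± 0.44 (SE, adjusted p = 0.0288). Kif20b, which acts in cytokinesis, read 11328 in MEF and 637.2 and 342.6 in iLC, the lowest level relative to MEF of any member (-4.55 ± 0.52, adjusted p = 0.0331). Both iLC arrays lay far below the MEF array for each gene.

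The other 4 called members work on the spindle. Kif15, a spindle motor that backs up Kif11, read 8111 in MEF and 495.4 and 583.1 in iLC (-3.88 ± 0.38, adjusted p = 0.0288). Kif11, also known as Eg5, which pushes the spindle poles apart, read 3872 in MEF and 320.9 and 337.5 in iLC (-3.49 ± 0.45, adjusted p = 0.0426). Kif2c, or MCAK, which shortens microtubules at centromeres, read 14963 in MEF and 1032 and 1213 in iLC (-3.72 ± 0.47, adjusted p = 0.0394). For these 3 genes the iLC arrays lay close to each other and far below MEF. Kif18a, which limits chromosome oscillation at the metaphase plate, read 5560 in MEF and 730.6 and 632.6 in iLC (-3.00 ± 0.38, adjusted p = 0.0394). The macrophage and smooth muscle markers given above also read lower in iLC than in MEF (medians -1.22 and -1.34), and their part in the kinesin differences was not tested. In these bulk samples fewer dividing cells and less RNA per cell cannot be told apart.

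The 2 chromokinesins, which push chromosome arms outward, had the next largest differences without passing. Kif4 read 19058 in MEF and 2410 and 2343 in iLC (-3.00 ± 0.51, adjusted p = 0.0732), and its second probe gave -2.66. Kif22 read 34480 in MEF and 4421 and 6975 in iLC (-2.63 ± 0.54, adjusted p = 0.0995). On both genes the MEF reading lay above every other array. The remaining 4 mitotic members had dim probes in MEF. Kif20a, which brings the chromosomal passenger complex to the central spindle, read 325.0 there and 213.9 and 208.5 in iLC (-0.59), Kif14, a cytokinesis motor, 214.6 against 92.3 and 102.2 (-1.03), and Kif18b, which acts on astral microtubules, 179.9 against 54.0 and 96.0 (-1.15). At these levels the arrays' unequal low ends are of the same order as the readings. Kif2b, a relative of Kif2c, read 496.7 in MEF and 296.1 and 541.8 in iLC (-0.30).

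**Figure D2:**
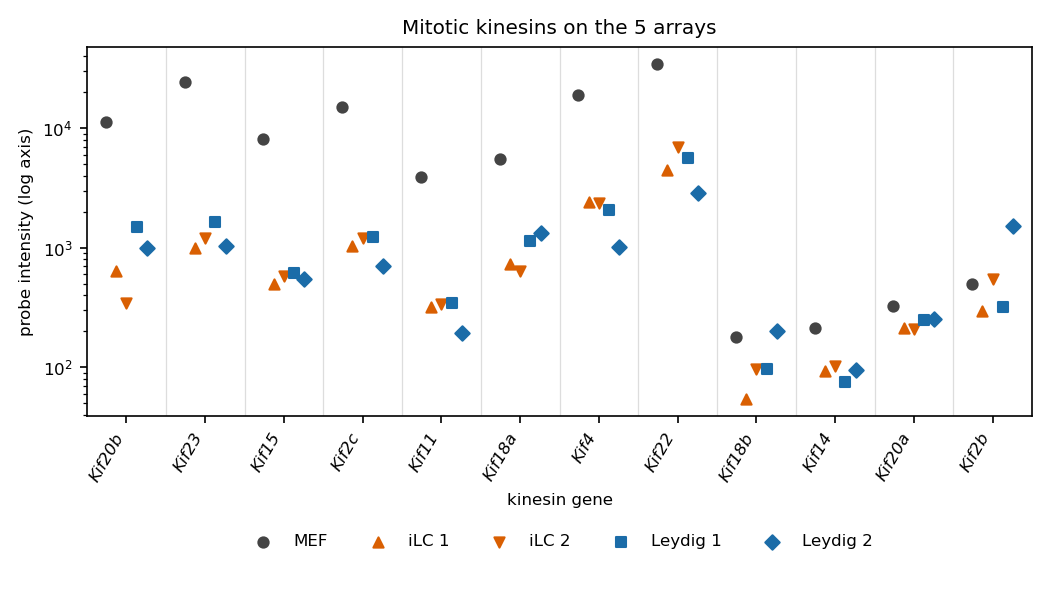
Probe intensity (log axis) of the 12 mitotic kinesins on each of the 5 arrays, ordered by the iLC minus MEF difference; grey circles are the MEF array, orange triangles the iLC arrays and blue squares and diamonds the Leydig arrays. For the first 8 genes the MEF array reads 3872 or more and lies above the other 4 arrays, whereas the last 4 are dim on it.

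Every one of the 12 mitotic kinesins had a log2 difference below 0 between iLC and MEF, with a median of -3.00 against -0.11 over all genes, and both iLC arrays read below the MEF array for 11 of them, as they did for 44.4% of all genes. Summed over the class, intensities were 122733 in MEF, 11690 and 14568 in iLC, and 14875 and 10718 in the Leydig pair, while the transport kinesins summed to 163032, then 183300 and 153258, then 138770 and 150109. The 15 transport kinesins had a median of 0.45 (range -0.60 to 1.65), and the 10 others one of -0.18 (-0.52 to 1.41). The 6 calls rested on all 5 arrays. They were lost when any 1 of the 4 other arrays was left out, where limma called 0 genes in all (2137 to 2881 at an unadjusted p under 0.05), and with a pseudocount of 1. Without iLC replicate 1 or 2 the difference of Kif23 was -4.32 or -4.59 and that of Kif20b -4.98 or -4.12.

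Between Leydig cells and MEF, 8 of the 12 mitotic kinesins were lower and none was higher, against 3.99% of all genes called lower and 7.38% called in all. This comparison shares the MEF array with the previous one, so its values are given beside those and not as a second support. The 8 were the 6 genes named above together with Kif4 and Kif22. Kif23 read 1641 and 1023 in Leydig cells (-4.20 ± 0.44, adjusted p = 0.00587), Kif15 608.3 and 543.1 (-3.78 ± 0.38, adjusted p = 0.00524) and Kif2c 1229 and 698.7 (-3.99 ± 0.47, adjusted p = 0.00777). Kif11 read 344.7 and 194.2 (-3.82, adjusted p = 0.00787). Each of these lay far below its MEF reading on both arrays. Kif20b read 1496 and 987.0 (-3.20, adjusted p = 0.0188) and Kif18a 1147 and 1317 (-2.16, adjusted p = 0.0237), the smallest called difference of the class. Kif4 read 2067 and 1016 (-3.70, adjusted p = 0.0118), with -4.13 on its second probe, and Kif22 5601 and 2887 (-3.09, adjusted p = 0.0242). The 4 dim members did not pass, with differences of -1.19 for Kif14, -0.36 for Kif20a, -0.32 for Kif18b and 0.48 for Kif2b. The median of the class was -3.15 against -0.10 over all genes. Without Leydig replicate 1 the count was 5, without Leydig replicate 2 it was 0 (9 of the 12 at an unadjusted p under 0.05, limma), and without either iLC array it was 7. Without Leydig replicate 2 the median was -2.76. With all arrays, the median Leydig minus MEF difference was -2.76 for macrophage, -4.09 for smooth muscle and myoid and 3.46 for germ cell markers. The part of these cell types was not tested.

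Between iLC and Leydig cells none of the 12 mitotic kinesins passed the test in limma, and Kif20b and Kif18a alone had an unadjusted p under 0.05. Over all genes 5.74% were called higher and 5.69% lower in iLC (11.4% in all), and 5122 of 19084 had an unadjusted p under 0.05 (limma). Kif20b was lower on both iLC arrays than on both Leydig arrays (-1.35, 95% interval -2.37 to -0.32, adjusted p = 0.0994), and so was Kif18a (-0.84, interval -1.59 to -0.09, adjusted p = 0.146). The intervals are not adjusted for the number of genes. Those of the other 10 held 0, as for Kif23 (-1.13 to 0.63), Kif15 (-0.84 to 0.65), Kif2c (-0.66 to 1.19) and Kif11 (-0.58 to 1.23). Over the class the bounds reached from -2.54 to 1.71, so differences of that size between iLC and Leydig cells were not excluded by these arrays. Kif2b read 321.1 on Leydig replicate 1 and 1505 on replicate 2, and the germ cell marker sum rose between the same arrays; its part in this reading was not tested. Kif20b was called lower with the replicate number as a block (limma, adjusted p = 0.0353) or with only the brighter genes (adjusted p = 0.0483). No other alternative called it, and these calls add no support. Brighter genes were chosen by the mean over all arrays, and Kif20b read 1496 or less outside MEF, where it read 11328. In the block fit the adjusted p of the kinesins examined followed the size of the difference, not the gene's own spread.

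Genes that work with the mitotic kinesins were given by a list of 26, of which 25 were measured. Between iLC and MEF 9 were lower and none higher (median -2.78), against 0.288% of all genes called lower. The 9 were Prc1, Ect2, Aurka, Birc5, Plk1, Bub1, Ndc80, Hmmr and Foxm1. At an unadjusted p under 0.05 (limma) there were 23, against 3006 of all 19084 genes. Bub1, a spindle checkpoint kinase, read 12237 in MEF and 745.3 and 486.1 in iLC (-4.31, adjusted p = 0.0331). Ndc80, which ties kinetochores to microtubules, had a difference of -4.09 (adjusted p = 0.0394), Hmmr, a spindle assembly factor, one of -4.20 (adjusted p = 0.0387), and Foxm1, a transcription factor of late cell cycle genes, one of -3.83 (adjusted p = 0.0331). Between Leydig cells and MEF 18 were lower and none higher (median -3.69), against 3.99% of all genes called lower. They were led by Hmmr (-5.20), Tpx2 (-4.63), an activator of Aurora A, Ndc80 (-4.59) and Prc1 (-4.54), the partner of Kif4 at the central spindle. Racgap1, which forms centralspindlin with Kif23, was among the 18. Between iLC and Leydig cells 0 passed, with a median of 0.50. At an unadjusted p under 0.05 (limma) there were 8, against 5122 of all 19084 genes. The largest differences were those of Cdca8 (1.37, adjusted p = 0.0577) and Tpx2 (1.34, adjusted p = 0.149).

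Among 8 measured relatives and subunits of the kinesins outside the symbol rule, Cenpe, the centromere motor that lines up chromosomes, was lower in iLC than in MEF (-3.43 ± 0.38, adjusted p = 0.0331) and in Leydig cells than in MEF (-3.70, adjusted p = 0.0056). It read 3547 in MEF, 350.1 and 281.7 in iLC, and 266.7 and 249.7 in the Leydig pair. Klc3, a light chain of conventional kinesin, read 4276 in MEF, 4197 and 4106 in iLC, and 581.6 and 964.3 in the Leydig pair. It was higher in iLC than in Leydig cells (2.44, adjusted p = 0.00994) and lower in Leydig cells than in MEF (-2.49, adjusted p = 0.0249). The other 6 did not pass in any of the 3 comparisons.

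**Figure D3:**
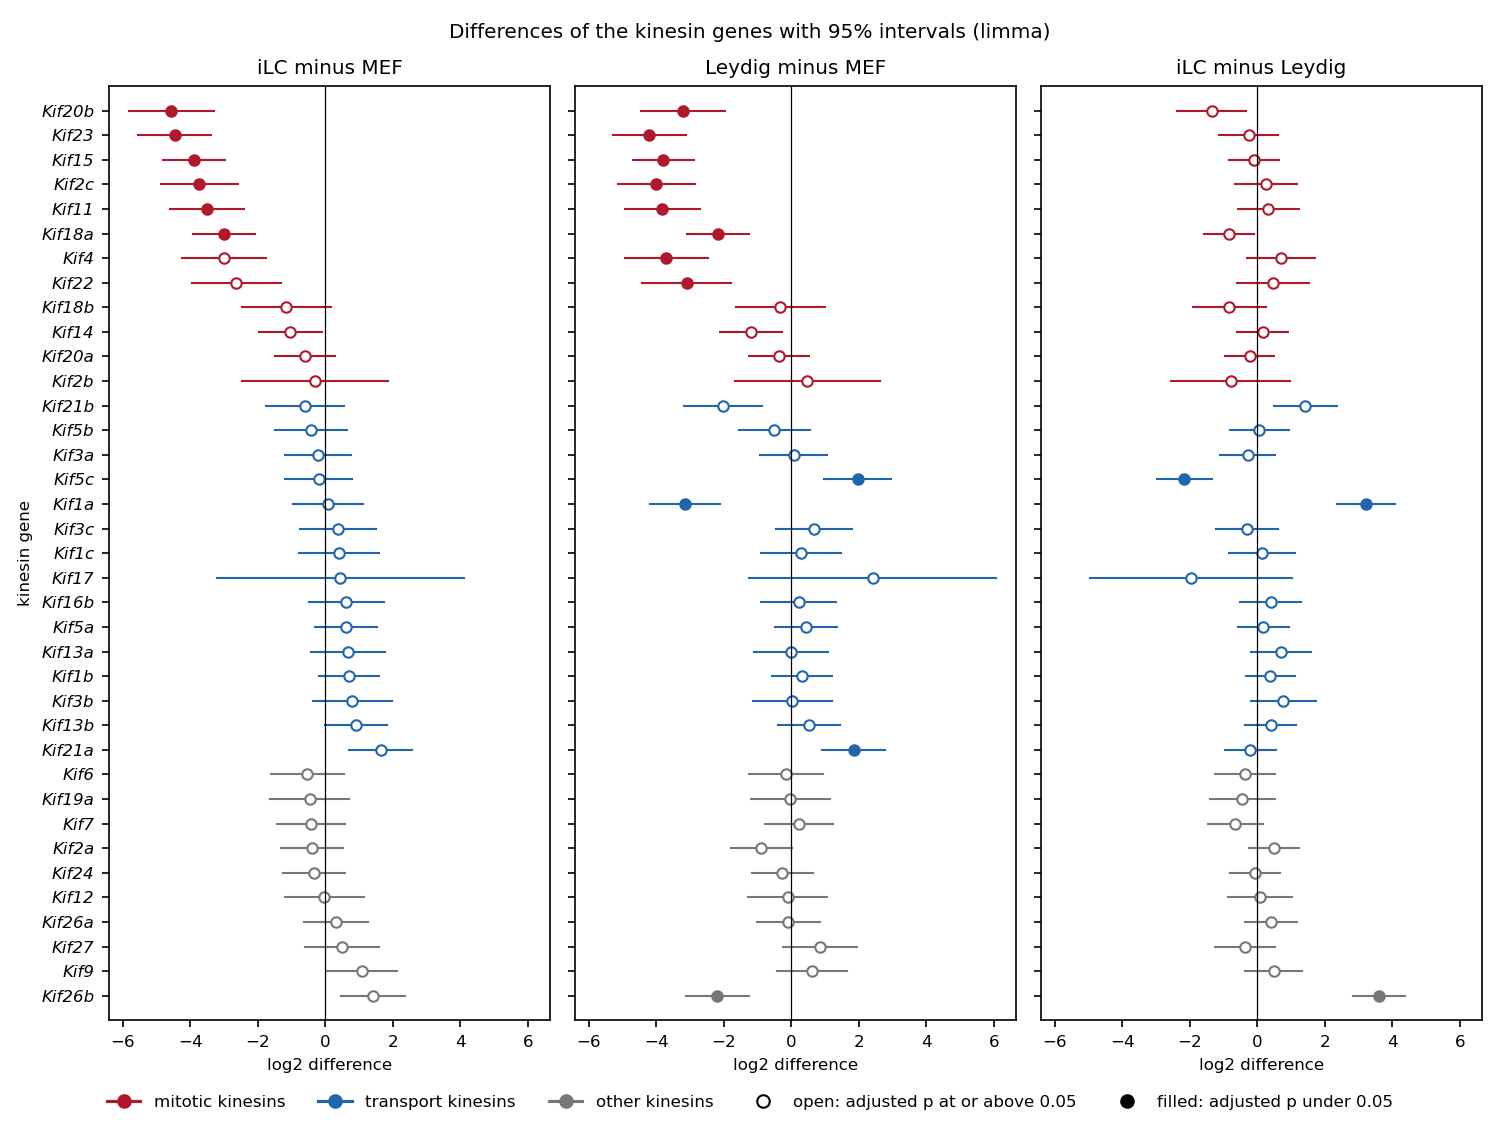
Log2 differences of the 37 kinesin genes in the 3 comparisons with 95% intervals from limma, red for mitotic, blue for transport and grey for other kinesins; filled points have an adjusted p under 0.05. Filled red points lie in both comparisons with MEF (6 and 8 genes) and in none between iLC and Leydig cells.

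Few transport kinesins passed the test, and those called between iLC and Leydig cells made up a share near that of all genes. Between iLC and MEF 0 of 15 passed the limma test, and Kif21a alone had an unadjusted p under 0.05, against 3006 of all 19084 genes. Between iLC and Leydig cells Kif1a was higher and Kif5c lower, where 11.4% of all genes were called. Between Leydig cells and MEF Kif1a was lower and Kif5c and Kif21a higher. There 3.99% of all genes were called lower and 3.39% higher (7.38% in all). Kif1a, which carries synaptic and dense-core vesicle precursors in neurons, read 10102 in MEF, 13236 and 8641 in iLC, and 1209 and 1065 in the Leydig pair. The fibroblast-derived arrays and the Leydig arrays did not overlap. Its log2 difference was 3.22 ± 0.35 (SE, adjusted p = 0.00357) between iLC and Leydig cells and -3.14 ± 0.43 (adjusted p = 0.0116) between Leydig cells and MEF, and its second probe gave 2.19 and -2.70. Without Leydig replicate 2 the first difference was 3.13 (adjusted p = 0.0505). The second was -3.23 (adjusted p = 0.0592) without Leydig replicate 1 and -3.05 (adjusted p = 0.0827) without Leydig replicate 2, so neither passed. Between iLC and Leydig cells 5 of 6 smooth muscle and myoid, 4 of 12 macrophage and 3 of 10 fibroblast markers were also higher, while 8 of 19 germ cell and 2 of 9 Sertoli markers were lower; 1 germ cell marker was higher and 1 fibroblast marker lower. The myoid markers summed to 538196 and 479772 in iLC and to 34193 and 49711 in the Leydig pair, and the Sertoli markers to 55768 and 92101 and to 348143 and 379747. The part of other cell types in the kinesin differences between iLC and Leydig cells was not tested.

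Kif5c, a heavy chain of conventional kinesin best known from neurons, differed in the opposite direction. It read 2994 in MEF, 2220 and 3067 in iLC, and 10823 and 12686 in the Leydig pair, with differences of -2.16 ± 0.33 (adjusted p = 0.0113) between iLC and Leydig cells and 1.96 ± 0.41 (adjusted p = 0.0405) between Leydig cells and MEF. The Leydig minus MEF call was lost with a pseudocount of 1 (adjusted p = 0.0626) and without any 1 array other than MEF (adjusted p from 0.066 to 0.156). The iLC minus Leydig call was lost without iLC replicate 1 (-1.93, adjusted p = 0.0722), Leydig replicate 1 (-2.27, adjusted p = 0.0566) or Leydig replicate 2 (-2.05, adjusted p = 0.0896). Kif5b, the heavy chain found in most cells, read 96755 in MEF, 91172 and 56534 in iLC, and 66438 and 70781 in the Leydig pair, and its differences lay between -0.50 and 0.07. Its second probe gave 0.91 between iLC and Leydig cells and -0.96 between Leydig cells and MEF. Kif5a, the remaining heavy chain, read 2739 in MEF, 4142 and 4333 in iLC, and 4126 and 3378 in the Leydig pair (0.63 between iLC and MEF). Its second probe differed by 2.24 between iLC and MEF, by 3.17 between Leydig cells and MEF, and by -0.92 between iLC and Leydig cells, where the first gave 0.18, so its probes disagreed in size and there in sign. Of the 10 kinesins with several probes, the probes had the same sign in 8 between iLC and MEF (not Kif1a and Kif7), 5 between iLC and Leydig cells (not Kif5a, Kif7, Kif9, Kif14 and Kif27) and 8 between Leydig cells and MEF (not Kif7 and Kif27).

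Kif21a, a motor that also quiets microtubule growth, read 1269 in MEF, 4229 and 3822 in iLC, and 4141 and 5192 in the Leydig pair. It was higher in Leydig cells than in MEF (1.86 ± 0.38, adjusted p = 0.0407), a call lost with a pseudocount of 1 and when any 1 array other than MEF was left out (highest adjusted p = 0.147). The iLC minus MEF difference of 1.65 did not pass (adjusted p = 0.128). All 4 iLC and Leydig arrays lay above the MEF array. Its relative Kif21b read 6209 in MEF, 3845 and 4362 in iLC, and 1125 and 2039 in the Leydig pair, with differences of -2.02 between Leydig cells and MEF (adjusted p = 0.0587) and 1.42 between iLC and Leydig cells (adjusted p = 0.0691). MEF and iLC lay above both Leydig arrays. Both differences passed with arrays centred on their median, with quantile normalization, among the brighter genes and with a floor (adjusted p from 0.0302 to 0.0495 between iLC and Leydig cells and from 0.0185 to 0.0391 between Leydig cells and MEF). The iLC minus Leydig difference also passed with the replicate number as a block (limma, adjusted p = 0.0234). In that fit the adjusted p followed the size of the difference. The Leydig minus MEF difference also passed with a pseudocount of 64 (adjusted p = 0.0396). Neither passed with any 1 array other than MEF left out.

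Kif17, which carries receptors in dendrites and is known from cilia and from spermatids, read 199.3 in MEF, 251.1 and 306.5 in iLC, 252.3 on Leydig replicate 1 and 4855 on Leydig replicate 2. Only Leydig replicate 2 was high. The difference between iLC and Leydig cells was -1.96 ± 1.23 (limma, adjusted p = 0.374), 0.13 without Leydig replicate 2 and -4.05 without Leydig replicate 1. With the replicate number as a block it passed (limma, adjusted p = 0.000671), although the log2 SD of the Leydig pair was 2.96. The block fit did not reflect this spread of Kif17, so that call is no support for a difference. Between Leydig cells and MEF the Kif17 difference was 2.41 (adjusted p = 0.461), then 0.32 and 4.50 without replicate 2 and without replicate 1. The protamine gene Prm1, a spermatid marker, read 6235 on Leydig replicate 1 and 141591 on replicate 2, and Odf1, a sperm tail gene, 2692 and 356634. The part of such transcripts in the Kif17 reading was not tested.

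The other transport kinesins did not pass in any comparison. Kif3a and Kif3b, the pair of heavy chains of the ciliary motor kinesin-II, read 2611 to 3887 and 8990 to 23016 over the 5 arrays. Kif3b read higher on both iLC arrays (12776 and 23016) than in MEF (9799) and both Leydig arrays (8990 and 11216), without passing (0.81 and 0.77). Kif1b, which moves mitochondria and synaptic vesicle precursors, read 22755 in MEF, 39100 and 35176 in iLC, and 29472 and 27250 in the Leydig pair (0.70 between iLC and MEF, adjusted p = 0.42). Its second probe gave 0.53. Kif13b, which carries signalling lipids and receptors, read 431.3 in MEF and 602.8 to 909.2 on the others (0.92 between iLC and MEF, adjusted p = 0.318). Kif1c, Kif3c, Kif13a and Kif16b had differences between -0.30 and 0.69 in the 3 comparisons. Of 19 measured cargo adaptor, dynein and dynactin genes 0 passed between iLC and MEF (1 at an unadjusted p under 0.05, limma). Between iLC and Leydig cells 0 passed (4 at an unadjusted p under 0.05). Over all 19084 genes these unadjusted counts were 3006 and 5122. Between Leydig cells and MEF 1 passed, the dynein adaptor gene Bicd2 (-2.03, adjusted p = 0.033), where 7.38% of all genes were called.

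**Figure D4:**
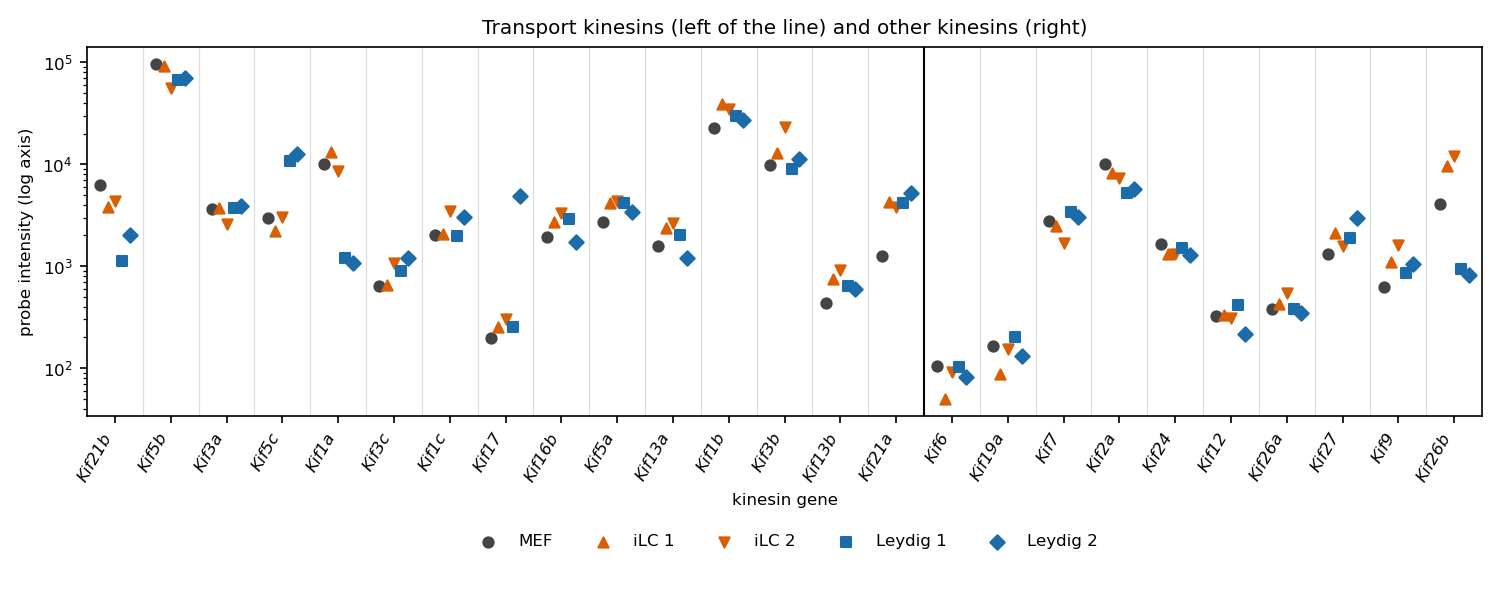
Probe intensity (log axis) of the 15 transport kinesins (left of the vertical line) and the 10 other kinesins on each of the 5 arrays, with the markers of the mitotic plot. Among called genes Kif1a, Kif5c and Kif26b separate the Leydig arrays from the rest, as do the uncalled Kif21b, Kif2a, Kif7 and, narrowly, Kif26a. Leydig replicate 2 stands alone for Kif17.

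Of the other kinesins, Kif26b alone passed. Kif26b is an atypical kinesin without motor activity that is known from cell adhesion and kidney development. It read 4049 in MEF, 9658 and 12090 in iLC, and 932.4 and 827.3 in the Leydig pair. No 2 groups overlapped. It was higher in iLC than in Leydig cells by 3.60 ± 0.31 on the log2 scale (95% interval 2.83 to 4.36, adjusted p = 0.00197), and passed under all 13 alternatives. It was lower in Leydig cells than in MEF by a log2 difference of -2.18 ± 0.39 (adjusted p = 0.0247), which did not pass once any 1 array other than MEF was left out (highest adjusted p = 0.114). Between iLC and MEF its difference of 1.41 did not pass (adjusted p = 0.171). Its near relative Kif26a was dim, at 346.4 to 549.0 over the 5 arrays, with differences of 0.32, 0.41 and -0.09. The promoter window of Kif26b held TTTGAA 9 bases before the start site, and 1 of the 2 windows of Kif1a held it 44 bases before. The window of Kif27 held it as well. Kif26b and Kif1a were called lower in Leydig cells than in MEF but not in iLC than in MEF, and Kif27 was not called. The part of the element in these readings was not tested.

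The remaining 8 others showed no call. Kif7, a scaffold of hedgehog signalling at the ciliary tip, read 2758 in MEF, 2506 and 1693 in iLC, and 3412 and 3068 in the Leydig pair (-0.65 between iLC and Leydig cells, adjusted p = 0.292), and its second probe had the opposite sign in each comparison. Kif27, its close relative, read 1302 in MEF and 1592 to 2983 on the others. Kif2a, which takes microtubules apart in neurons and at spindle poles, read 10131 in MEF, 8216 and 7256 in iLC, and 5196 and 5768 in the Leydig pair. Its difference of -0.89 between Leydig cells and MEF did not pass (adjusted p = 0.261), and neither did the -0.39 between iLC and MEF. Kif24, which restrains cilium assembly at centrioles, read 1667 in MEF and 1281 to 1510 on the others. Kif9, found in motile cilia and sperm tails, read 619.4 in MEF, 1098 and 1621 in iLC, and 849.3 and 1061 in the Leydig pair (1.09 between iLC and MEF, adjusted p = 0.301). Kif6, Kif12 and Kif19a stayed at 420.6 or lower on every array; with Kif26a, Kif13b and 3 mitotic kinesins they made up the 8 members that stayed below the lowest array median of 1111 throughout. Of 20 measured hedgehog and cilia genes 0 passed in any comparison by limma. At an unadjusted p under 0.05 they numbered 2 between iLC and MEF, 4 between iLC and Leydig cells and 6 between Leydig cells and MEF. Over all 19084 genes these counts were 3006, 5122 and 3797 in the same order. The largest differences were those of the transcription factor gene Gli3 (-2.03 between Leydig cells and MEF, adjusted p = 0.149) and the hedgehog-binding protein gene Hhip (-1.85 between iLC and MEF, adjusted p = 0.108).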

How the data were processed

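RNA of 5 samples was measured on 1-colour arrays with the dye Cy5, per the labels' protocols. Each deposited value is the linear intensity of a probe after the authors' own processing, and no source used here gives their background correction, normalization or detection calls. Groups came from titles. Probes were named through GEO's platform annotation (21876 of 26423 named), taking the brightest by mean for the 2424 genes with several. The 504 values below 0 were set to 0, 16 was added and log2 taken. One model in limma 3.58.1 (R 4.3.3; lmFit, eBayes) gave each group its mean, with 2 residual and 4.19 prior degrees of freedom. Tests were two-sided, adjusted by Benjamini-Hochberg over 19084 genes, with a threshold of 0.05; the number of arrays limits the precision. The script was tested on simulated data. The kinesin classes and gene lists were chosen with earlier results of these data known. Every kinesin is accounted for; of the other gene lists up to 4 called members, or 2 uncalled ones, with the largest differences are given with values, and further names were chosen after their values were seen. Promoter sequences are RefSeq's (GRCm38.p6). Alternatives were the scaling, the pseudocount, a filter, a floor, the probe rule, each array left out and a replicate block. The deviations of iLC and Leydig arrays of the same number correlated at 0.0552, and nothing else ties them, so they were not paired. Kif28 and Kif19b were not analysed here.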

Additional observations from a re-analysis of the deposited data

How the results depend on the processing

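No called kinesin changed its sign under any alternative. Uncalled ones that did so numbered 7 of 31 for iLC against MEF, 18 of 34 for iLC against Leydig cells and 11 of 25 for the third comparison. Between iLC and MEF, genes called higher and lower numbered 131 and 215 with arrays centred on their median, 171 and 208 with quantile normalization, 7 and 2 with a pseudocount of 1, 125 and 162 with a pseudocount of 64, 213 and 180 among genes brighter than the median, 143 and 185 with low values raised to the 20th percentile, and 0 and 0 when any 1 array of iLC or Leydig was left out (2137 to 2881 at an unadjusted p under 0.05, limma). The median of all genes moved from -0.11 to 0.05 with quantile normalization and to 0.11 with low ends aligned, an alternative chosen after seeing the data. Mitotic kinesins called lower between iLC and MEF numbered 0 with a pseudocount of 1 and 0 without any 1 array, and 5 to 7 under the others. Between Leydig cells and MEF they numbered 5 among those brighter genes, which include only 5 of the 12, and 0 to 7 when an array was left out. Transport kinesins called higher there numbered 0 with a pseudocount of 1 and 0 to 1 without an array (the 1 being Kif17), those called lower 2 with centring, quantile normalization, a pseudocount of 64, the brighter genes and the floor, and 0 to 1 without an array; other kinesins called numbered 0 without any 1 array. Genes called there without an array numbered 77 to 430 higher and 72 to 533 lower. Between iLC and Leydig cells they numbered 336 to 562 higher and 368 to 761 lower. Transport kinesins called higher in iLC than in Leydig cells numbered 2 with centring, quantile normalization, the brighter genes and the floor, and 0 to 1 without an array, as did those called lower without an array; mitotic kinesins called lower numbered 1 among the brighter genes. Except for the counts over fewer genes or arrays, the cause was not tested. The brighter genes were chosen by the mean over all 5 arrays, MEF included. Kif20b, Kif23 and Kif2c read 1641 or less on every other array, so they entered through MEF. Their calls as lower than MEF among the brighter genes were favoured by this filter and are no separate check.

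With the replicate number as a block between iLC and Leydig cells, 1485 genes were called higher and 1958 lower, with 1 mitotic kinesin lower and 2 transport kinesins higher and 2 lower. Among the kinesins examined, the adjusted p of that fit followed the size of the difference and not the gene's own spread. Its calls are therefore given as counts and not as support. No paired analysis was possible for the comparisons with MEF because MEF has 1 array. A single MEF array, pairs elsewhere and the unequal low ends of the arrays limit what dim kinesins can show.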
